A study of Homo sapiens with 12 samples.

Results

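Aminoacyl-tRNA synthetases are the enzymes that join each amino acid to its tRNA before the ribosome can use it. Their ribosome footprints were followed here through 35 genes, named from a fixed list of symbols: 19 whose enzymes work in the cytosol and 16 whose enzymes are imported into mitochondria. All 35 were found among the 13074 genes of the count table, and all 35 were among the 10467 genes with enough counts to be tested. The footprints came from A375, an established human melanoma cell line, in 12 ribosome profiling libraries. Control cells (labelled wt) and cells with a knockout of FTSJ1 (labelled ko1) were grown either without added selenium or with 30 nM sodium selenite, and each of the 4 groups held 3 libraries. The stated aim concerned selenoprotein translation after loss of a methyl group from the selenocysteine tRNA. The labels name 1 knockout line, so an effect of losing FTSJ1 and a trait of that line cannot be told apart. Separate cultures are not mentioned, so every p-value measures only the spread between these libraries. Footprints alone were used, so more mRNA and more translation of it cannot be told apart, nor can fewer cells of a kind and less RNA per cell.

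A human cell makes proteins both in the cytosol and inside its mitochondria, and each compartment has its own set of synthetases, nearly all encoded by separate nuclear genes. A few genes serve both compartments: GARS1 and KARS1, which charge the glycine and lysine tRNAs, supply cytosolic and mitochondrial enzyme. Several cytosolic synthetases are held together in the multisynthetase complex by scaffold proteins, while the others work free. FTSJ1 methylates the ribose of nucleotides in the anticodon loop of certain tRNAs, among them those for phenylalanine and tryptophan. The selenocysteine tRNA has no synthetase of its own: SARS1, the seryl-tRNA synthetase, loads it with serine, which other enzymes then convert. When charged tRNAs run short, the kinase GCN2 (EIF2AK4) and the transcription factor ATF4 raise a set of amino acid genes that includes several cytosolic synthetases.

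ATF4 and its partners bind a composite DNA element that appears in many of those genes, so the start regions of the synthetases were searched for it. RefSeq sequences (GRCh38.p14) from 250 bases before to 50 bases after an annotated start were read on both strands for the letters TGATGNAA. Of 35116 such windows 3.62% held a match, as did 2.9% of the 10657 genes of the table that had a window. Among the synthetases with a window, 7 of 16 cytosolic genes and 1 of 14 mitochondrial genes held one. The 30 bases around each match are shown because they set these 8 genes apart by sequence alone. They run 5′ to 3′ on the strand of the gene, and the capitals mark the match, which reads TTNCATCA where it lies on the opposite strand.
AARS1, chr16:70289675-70289704, minus strand: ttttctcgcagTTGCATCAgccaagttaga
CARS1, chr11:3057407-3057436, minus strand: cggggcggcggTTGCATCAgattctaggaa
GARS1, chr7:30594834-30594863, plus strand: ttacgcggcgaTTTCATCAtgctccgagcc
IARS1, chr9:92293692-92293721, minus strand: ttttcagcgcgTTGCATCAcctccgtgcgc
MARS1, chr12:57488053-57488082, plus strand: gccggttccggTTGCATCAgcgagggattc
NARS1, chr18:57621804-57621833, minus strand: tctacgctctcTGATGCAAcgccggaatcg
TARS1, chr5:33440956-33440985, plus strand: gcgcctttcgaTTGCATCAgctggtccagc
YARS2, chr12:32756076-32756105, minus strand: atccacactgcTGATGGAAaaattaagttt
The match begins 2 to 33 bases before a start in CARS1, GARS1, IARS1 and MARS1, and 187 and 197 bases before it in AARS1 and YARS2. In NARS1 and TARS1 it begins 15 and 3 bases after a start. No window was given for LARS1, VARS1, YARS1, AARS2 and VARS2. A match describes these letters and does not show that a factor binds there.

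HARS1 and HARS2, the cytosolic and mitochondrial histidyl-tRNA synthetases, lie head to head on chromosome 5. HARS1 is on the minus strand (140673905 to 140691370) and HARS2 on the plus strand (140691455 to 140699305), and the 84 bases between them, 59.5% of them G or C, are the shared start region of both. They are shown on the plus strand, all in lower case since no motif is marked, because both genes are described below.
HARS1-HARS2, chr5:140691371-140691454, plus strand: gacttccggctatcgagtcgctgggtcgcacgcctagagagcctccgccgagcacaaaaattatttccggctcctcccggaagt

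The libraries held 520989 to 1543627 counts, with a median of 1336000. Replicates 2 and 3 of the knockout with selenite were the shallowest, with 636920 and 520989 counts, and had the highest share of histone footprints, 88151 and 94131 CPM (footprint counts scaled to a common library size) against 52924 to 75136 in the others. FTSJ1 was lower in both knockout groups, by log2 fold changes of -4.41 ± 0.54 and -3.69 ± 0.53 (SE; edgeR quasi-likelihood test, Benjamini-Hochberg adjusted p = 5.0e-05 and 1.1e-04). Of 10 melanoma markers 7 were in the table, with a summed level of 1675 to 2733 CPM, while PMEL, MLANA and TYR were not in it. Of the 7, DCT was nearly absent, with 27 counts over all 12 libraries and 0 to 6.04 CPM. Of 15 markers of other cell types 12 had no row, and the other 3 (VWF, COL1A1 and PDGFRB) summed to 24.2 to 49.2 CPM. The group mean of each sum was highest in the knockout with selenite (2465 and 45.1 CPM), and their part in the results below was not tested. A gene with 3 counts would stand at 1.98 to 5.99 CPM, a limit that covers counting error only. Single cytosolic synthetases had 51 to 1101 counts in a library and mitochondrial ones 5 to 653. The standard error of a log2 fold change, in the comparison without selenite, had a median of 0.104 for cytosolic and 0.209 for mitochondrial genes, so smaller changes could be called among the cytosolic ones.

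Without selenite, loss of FTSJ1 went with 6 called changes among the synthetases, and the largest rise and the largest fall of these were in the subunits of the same enzyme. Of the cytosolic genes 1 rose (FARSB) and 3 fell (FARSA, LARS1 and NARS1), and of the mitochondrial genes 2 rose (LARS2 and YARS2) and none fell. Over all genes tested 23.9% were called in this comparison, 11.8% higher and 12% lower, by the edgeR quasi-likelihood test at a Benjamini-Hochberg adjusted p under 0.05. The 6 calls among 35 synthetases are a smaller share than that background. The median log2 fold change was 0.01 for the cytosolic genes, 0.26 for the mitochondrial genes and -0.00014 for all genes.

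FARSA and FARSB encode the alpha and beta subunits of the cytosolic phenylalanyl-tRNA synthetase. FARSB footprints stood at 68, 76.97 and 70.23 CPM in the control libraries without selenite and at 119.5, 120.7 and 121.4 CPM in the knockout libraries. Every knockout library was above every control library, though the share of all genes so separated was not counted. The rise was 1.68-fold, a log2 change of 0.75 ± 0.13 (SE, adjusted p = 1.7e-05), and it was called under all 22 other settings tried. FARSA footprints stood at 341.3, 352.2 and 346.9 CPM in control and at 225.1, 284.7 and 265 CPM in knockout libraries. The subunits thus moved apart, FARSA falling by 0.43 ± 0.11 on the log2 scale (adjusted p = 0.0051), with no overlap between the groups. The FARSA call was lost without knockout replicate 1 (-0.34) and with all libraries thinned to the smallest total (-0.30). The ratio of FARSA to FARSB counts within a library, which needs no scaling between libraries, was 4.84 ± 0.24 in control and 2.14 ± 0.24 in knockout libraries (SD, n = 3). It is a ratio of counts that also carries the lengths of the genes, so it gives no stoichiometry, only its change between groups.

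**Figure D1:**
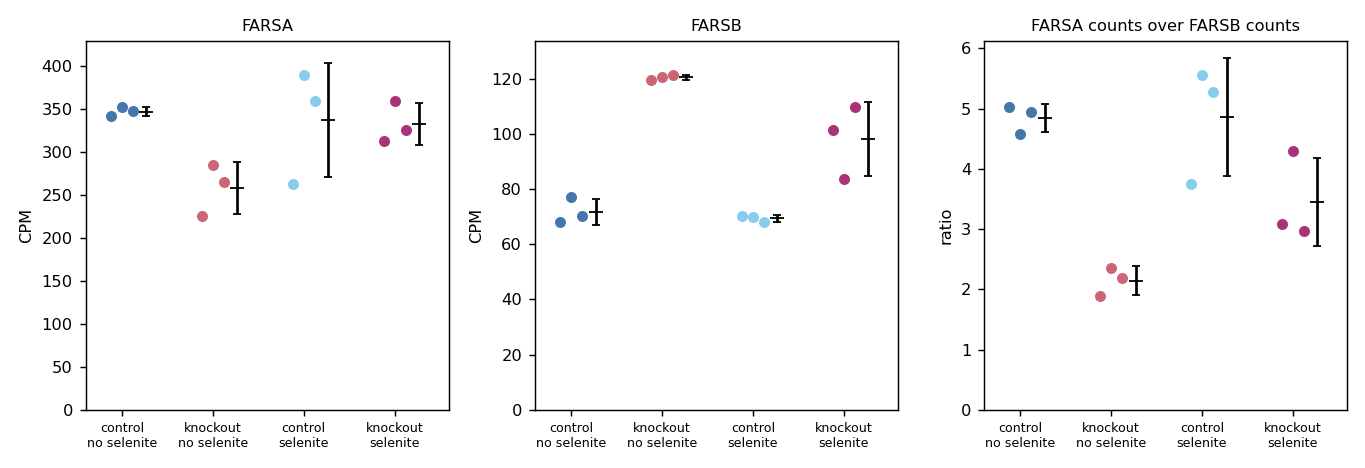
Footprint levels in CPM of FARSA (left) and FARSB (middle) and the ratio of their counts (right) in each of the 12 libraries, by group; dots are libraries and the bars mark the mean and SD of 3. The ratio was 1.88 to 2.36 in the knockout libraries without selenite and 2.96 to 4.29 in those with it, against 3.74 to 5.56 in the 6 control libraries.

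LARS1, the cytosolic leucyl-tRNA synthetase and a member of the multisynthetase complex, stood at 340, 366.7 and 368.9 CPM in control and 321.4, 256.8 and 264.2 CPM in knockout libraries. NARS1, which charges the asparagine tRNA, stood at 310.7, 334 and 288.7 CPM in control and 264.3, 235.2 and 235.5 CPM in knockout libraries. The groups were apart for both genes, with the share of all genes so separated not counted. LARS1 fell by 0.35 ± 0.11 on the log2 scale (adjusted p = 0.012) and NARS1 by 0.34 ± 0.10 (adjusted p = 0.0098). The LARS1 call was lost on thinning and without control replicate 2 or 3 or knockout replicate 2 or 3, where the log2 change was -0.24 to -0.34. The NARS1 call was lost on thinning, without control replicate 2 and without knockout replicate 3 (-0.24 to -0.32).

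The mitochondrial leucyl-tRNA synthetase moved the opposite way to its cytosolic counterpart. LARS2 stood at 38, 39.21 and 51.07 CPM in control and 73.05, 59.47 and 66.98 CPM in knockout libraries, a rise of 0.64 ± 0.17 on the log2 scale (adjusted p = 0.0039) with no overlap. YARS2, the mitochondrial tyrosyl-tRNA synthetase, stood at 70.67, 72.62 and 62.42 CPM in control and 92.97, 86.51 and 86.85 CPM in knockout libraries. It rose by 0.37 ± 0.13 (adjusted p = 0.032), a call lost under 8 of the 22 other settings, among them each of the 6 that left out 1 compared library. Just short of the threshold were TARS2 (0.37, adjusted p = 0.052), IARS1 (0.27, adjusted p = 0.053) and CARS1 (-0.33, adjusted p = 0.057). The groups did not overlap for any of them, but the share of all genes without overlap was not counted.

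**Figure D2:**
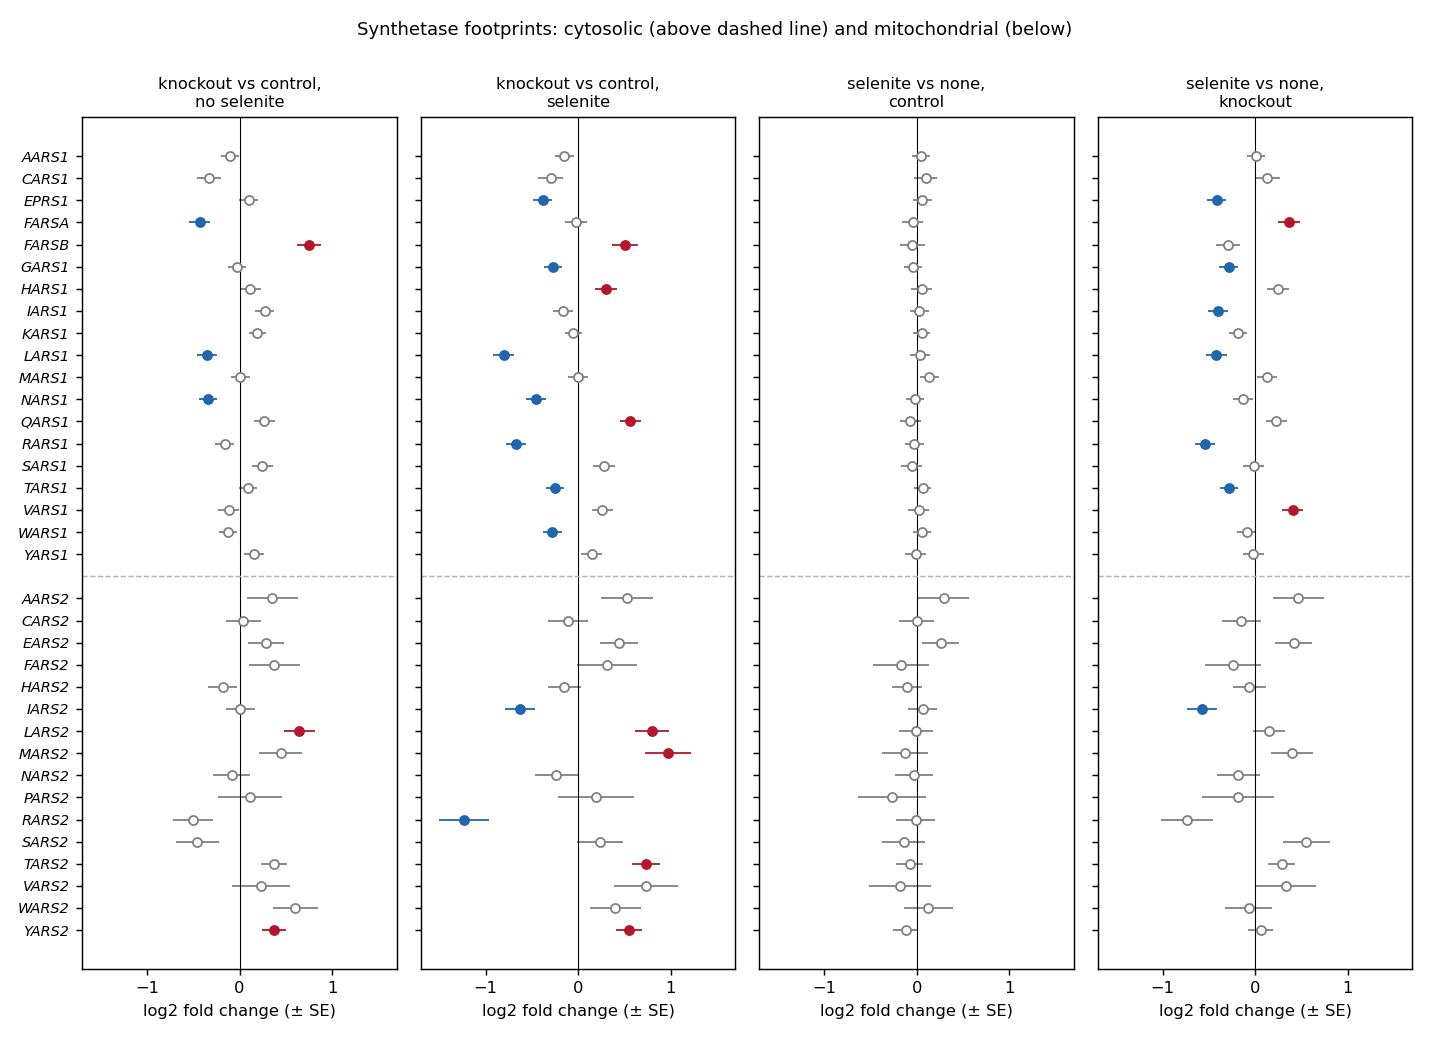
Log2 fold change (horizontal axis, ± SE) of each of the 35 synthetases in 4 comparisons, cytosolic genes above the dashed line and mitochondrial genes below it. Filled dots passed the threshold (red higher, blue lower) and open dots did not: 6 synthetases passed for the knockout without selenite, 16 with selenite, 0 for selenite in control cells and 9 for selenite in knockout cells.

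With selenite in both genotypes, 16 of the 35 synthetases differed between knockout and control, in both directions. Of the cytosolic genes 3 rose (FARSB, HARS1 and QARS1) and 7 fell (EPRS1, GARS1, LARS1, NARS1, RARS1, TARS1 and WARS1). Of the mitochondrial genes 4 rose (LARS2, MARS2, TARS2 and YARS2) and 2 fell (IARS2 and RARS2). Over all genes 42.9% were called, 21.3% higher and 21.6% lower, so the share of synthetases called was near the background. The median log2 fold change was -0.15 for the cytosolic genes, 0.36 for the mitochondrial genes and -0.02 for all genes. The cytosolic median was -0.09 without knockout replicate 3 and also without both shallow libraries. Over the other settings the mitochondrial median ran from 0.26 without both shallow libraries to 0.60 on thinning. Without the 2 shallow libraries, which leaves 1 library in the knockout group and assumes that it varies like the others, 5 cytosolic genes were called (2 higher and 3 lower) and 5 mitochondrial genes (4 higher and 1 lower). Of the 5 genes called in both knockout comparisons in 1 direction, FARSB, LARS2 and YARS2 were higher and LARS1 and NARS1 lower, and none was called in opposite directions.

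The largest cytosolic falls were in 2 synthetases of the multisynthetase complex. LARS1 stood at 387.2, 383.1 and 333.7 CPM in control and 227.1, 216.4 and 181.7 CPM in knockout libraries with selenite. RARS1, which charges the arginine tRNA, stood at 426.5, 352.4 and 378.3 CPM in control and 264.6, 213.1 and 243.6 CPM in knockout libraries. The groups did not overlap for either gene, though the share of all genes without overlap was not counted. LARS1 fell to 0.573 of control, a log2 change of -0.80 ± 0.11 (adjusted p = 3.4e-07), and RARS1 to 0.628 of control, -0.67 ± 0.11 (adjusted p = 4.8e-06). Both calls held under all 22 other settings, in which LARS1 ranged from -0.90 to -0.56 and RARS1 from -0.79 to -0.35.

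QARS1, the glutaminyl-tRNA synthetase of the same complex, went up instead. It stood at 163.4, 192.1 and 172.9 CPM in control and 231.1, 262.3 and 295.5 CPM in knockout libraries. The rise was 0.57 ± 0.12 on the log2 scale (adjusted p = 0.00015). It held under all 22 other settings, in which it ranged from 0.29 to 0.64. EPRS1, which carries the glutamyl- and prolyl-tRNA synthetases in 1 chain, stood at 661.7, 586.9 and 607.8 CPM in control and 561.6, 422.9 and 429.2 CPM in knockout libraries. Its lowest values were those of the 2 shallow libraries, and the fall of 0.38 ± 0.10 (adjusted p = 0.0031) was not called without them (-0.12). The EPRS1 call was also lost on thinning (-0.36) and with the gene density trend described below removed (-0.15). The remaining complex members IARS1, KARS1 and MARS1 were not called, with log2 changes of -0.16, -0.05 and -0.0009.

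Among the free cytosolic enzymes, FARSB stood at 70.26, 70.05 and 67.95 CPM in control and 101.4, 83.6 and 109.8 CPM in knockout libraries with selenite. The groups were again apart, and how many of all genes were so was not counted. The rise was 0.50 ± 0.14 on the log2 scale (adjusted p = 0.004), lost only on thinning among the 22 other settings. FARSA was not called (-0.02, adjusted p = 0.90), and the interaction, which tests the difference from the comparison without selenite, was not called for it either (0.41, adjusted p = 0.12). Its control libraries were spread from 263.1 to 389.5 CPM and contained the knockout values of 312.7 to 359 CPM. NARS1 fell by 0.46 ± 0.11 (adjusted p = 0.00059), with control libraries at 299.3 to 315.6 CPM and knockout libraries at 217.9 to 232.8 CPM.

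GARS1, TARS1 and WARS1, which charge the glycine, threonine and tryptophan tRNAs, fell by smaller amounts, with log2 changes of -0.27, -0.25 and -0.28 (adjusted p = 0.027, 0.034 and 0.028). HARS1 rose by 0.31 ± 0.12 (adjusted p = 0.037), with control libraries at 159.3 to 186.5 CPM and knockout libraries at 207.4 to 225.6 CPM. These 4 were called under 10 to 14 of the 22 other settings and were not called without the shallow libraries. HARS2, on the other side of the 84 bases printed above, was not called (-0.15, adjusted p = 0.53). Whether the 2 genes differed from each other was not tested.

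Among the mitochondrial enzymes, the largest fall was in RARS2, the mitochondrial arginyl-tRNA synthetase. It stood at 35.13, 22.29 and 32.47 CPM in control and 13.17, 14.75 and 9.982 CPM in knockout libraries with selenite. These values did not overlap, though the share of all genes without overlap was not counted. The knockout values rest on 20, 9 and 5 counts, in libraries where 3 counts would stand at 1.98, 4.92 and 5.99 CPM. The fall was 1.23 ± 0.27 on the log2 scale, to 0.426 of control (adjusted p = 0.00035), lost among the 22 other settings only on thinning. Both arginyl-tRNA synthetases thus fell in this comparison. IARS2, the mitochondrial isoleucyl-tRNA synthetase, stood at 348.8, 327.9 and 462.1 CPM in control and 261.4, 239.3 and 231.6 CPM in knockout libraries. Control replicate 3 was the highest with selenite and also without it (463.2 CPM against 310 and 316.6). The IARS2 fall of 0.63 ± 0.16 (adjusted p = 0.0058) was not called without the shallow libraries (-0.52). Its call was also lost with the gene density trend described below removed (-0.40).

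The libraries of the 2 groups did not overlap for any of the 4 mitochondrial genes that rose. How many of all genes were likewise without overlap was not counted, so this only describes the values. LARS2 stood at 38.4, 36.08 and 52.1 CPM in control and 73.07, 68.85 and 81.85 CPM in knockout libraries, a rise of 0.80 ± 0.18 on the log2 scale (adjusted p = 0.00055) that held under all 22 other settings. TARS2, the mitochondrial threonyl-tRNA synthetase, stood at 62.09, 63.68 and 79.28 CPM in control and 106, 144.3 and 93.83 CPM in knockout libraries. MARS2, which charges the mitochondrial methionine tRNA, stood at 17.16, 38.21 and 35.49 CPM in control and 61.22, 57.37 and 55.9 CPM in knockout libraries. TARS2 rose by 0.73 ± 0.15 (adjusted p = 0.00016), MARS2 by 0.97 ± 0.25 (adjusted p = 0.0023) and YARS2 by 0.55 ± 0.14 (adjusted p = 0.002). Of the 22 other settings, thinning to the smallest total was the 1 that ended the call for each of these 3. In the leucine pair LARS1 fell and LARS2 rose, each under all 22 other settings. In the threonine pair TARS1 fell and TARS2 rose, but the TARS1 call held under 12 of the 22 and its direction turned (0.03) with the gene density trend described below removed.

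**Figure D3:**
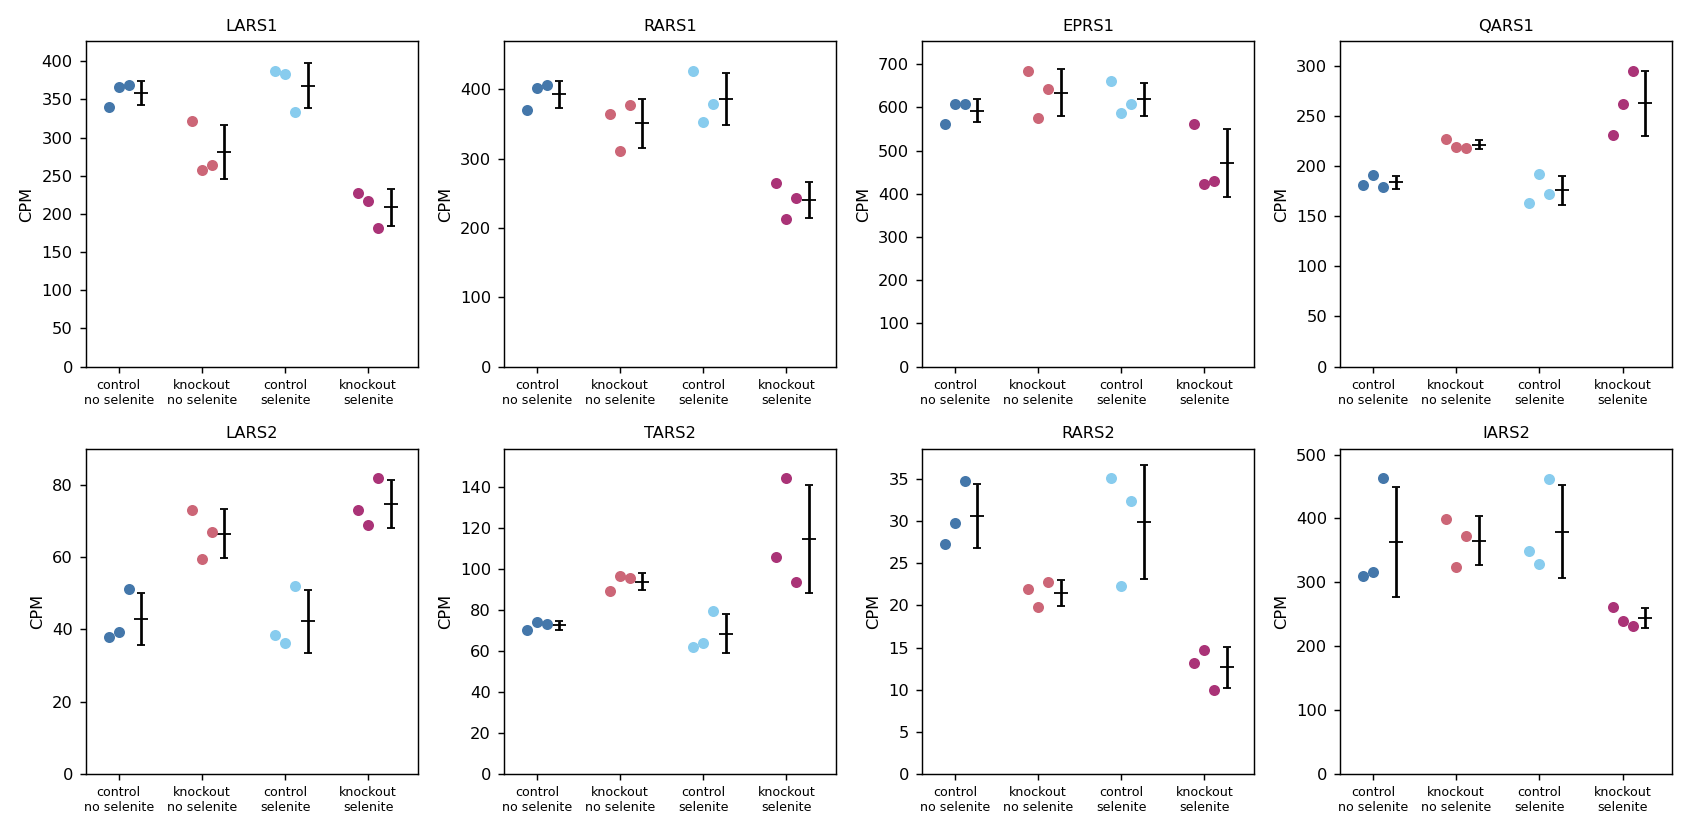
Footprint levels in CPM of 8 synthetases in each of the 12 libraries, by group, with the mean and SD of 3 libraries. LARS1 and RARS1 were lowest in the knockout with selenite (181.7 to 227.1 and 213.1 to 264.6 CPM), where QARS1 was highest (231.1 to 295.5 CPM).

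In control cells, selenite went with no called change in any synthetase. Over all genes 0.0191% were called, 2 of 10467. Among the synthetases the adjusted p was 1.0 for every gene in the edgeR test, and 0 of 19 and 0 of 16 had an unadjusted p under 0.05, against 284 of all genes. DESeq2 also called 0 synthetases. The log2 changes ran from -0.27 to 0.29. The 95% confidence intervals of the 19 cytosolic genes all lay between -0.32 and 0.36, and those of all 35 between -1.01 and 0.86. Larger cytosolic changes were thus outside the intervals, while sizeable ones in some sparsely counted mitochondrial genes lay within theirs.

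In knockout cells, selenite went with 9 called synthetases against 20.5% of all genes called, 10.2% higher and 10.3% lower. Each comparison of knockout libraries shares them with another, so the values side by side are not independent. Of the cytosolic genes 2 rose (FARSA and VARS1) and 6 fell (EPRS1, GARS1, IARS1, LARS1, RARS1 and TARS1), and of the mitochondrial genes 1 fell (IARS2). None of the 9 was called without the 2 shallow libraries, a setting in which 54 of all genes were called. Leaving out knockout replicate 1 without selenite left 1 cytosolic and 0 mitochondrial calls.

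RARS1 stood at 364.6, 310.9 and 377.6 CPM in knockout libraries without selenite, against 264.6, 213.1 and 243.6 CPM with it. It fell by 0.54 ± 0.11 on the log2 scale (adjusted p = 0.00079). EPRS1 stood at 684.6, 576.7 and 642.6 CPM without selenite and at the 3 lower values given above with it, falling by 0.42 ± 0.10 (adjusted p = 0.0046). IARS1, the cytosolic isoleucyl-tRNA synthetase, stood at 731.1, 623.6 and 613.9 CPM without and 537.2, 500 and 445.2 CPM with selenite. For all 3 genes every library with selenite was below every library without it, though the share of all genes so separated was not counted. IARS1 fell by 0.40 ± 0.11 (adjusted p = 0.0071) and LARS1 by 0.42 ± 0.11 (adjusted p = 0.008).

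In the other direction, VARS1, the cytosolic valyl-tRNA synthetase, stood at 166.7, 173 and 178.9 CPM without and 206.1, 227.9 and 259.5 CPM with selenite in knockout cells. It rose by 0.40 ± 0.12 on the log2 scale (adjusted p = 0.013). FARSA rose by 0.36 ± 0.12 (adjusted p = 0.027), with 225.1 to 284.7 CPM without and 312.7 to 359 CPM with selenite. The latter values lie within the 263.1 to 389.5 CPM of the control libraries. GARS1 and TARS1 fell by 0.29 and 0.28 (adjusted p = 0.038 and 0.037), and IARS2 by 0.57 ± 0.16 (adjusted p = 0.023).

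The interaction of knockout and selenite tests whether the response to selenite differed between the genotypes. It called EPRS1 (-0.48 ± 0.14 on the log2 scale, adjusted p = 0.036) and RARS1 (-0.51 ± 0.15, adjusted p = 0.031), both lower, and no mitochondrial synthetase, against 7.45% of all genes called, 3.76% higher and 3.69% lower. Each of the 2 calls was lost under 13 of 21 other settings. LARS1 (-0.45, adjusted p = 0.060) and IARS1 (-0.43, adjusted p = 0.067) were the next. So LARS1 fell with selenite in knockout cells, but a difference from its response in control cells was not called.

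These 4 genes are all synthetases of the multisynthetase complex, which here has 7 listed members. In knockout cells selenite went with 4 falls and no rise among the 7, with a median log2 change of -0.40, against 2 falls and 2 rises among the 12 free cytosolic synthetases, with a median of -0.02. The median of all genes was 0.0076, and 20.5% of them were called. None of these calls held without the 2 shallow libraries, and the difference between complex and free enzymes was not tested. For the knockout with selenite the complex had 1 rise and 3 falls and the free enzymes 2 and 4, with 42.9% of all genes called. Without selenite the complex had 1 fall and the free enzymes 1 rise and 2 falls, with 23.9% of all genes called. Of the 3 scaffold proteins, AIMP1 fell with selenite in knockout cells (-0.62 ± 0.14, adjusted p = 0.0017) and in the interaction (-0.58 ± 0.19, adjusted p = 0.048). AIMP2 instead rose in knockout cells without selenite (0.55 ± 0.12, adjusted p = 0.00055) and with it (0.39 ± 0.13, adjusted p = 0.012). EEF1E1, the third scaffold, was not called in any comparison. Scaffold and synthetases of the complex thus held both rises (AIMP2 and QARS1) and falls (AIMP1, EPRS1, LARS1 and RARS1) in the knockout with selenite.

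The cytosolic synthetases that fell with selenite in knockout cells have fewer genes around them than those that rose. For each gene the protein-coding genes starting within 1 Mb were counted from RefSeq, with a median of 20 for all genes, 22 for the cytosolic and 14.5 for the mitochondrial synthetases. The 6 cytosolic genes that fell have 4 to 19 such neighbours, from RARS1 with 4 through TARS1 with 7, LARS1 with 10 and EPRS1 with 11 to IARS1 with 19. The 2 that rose, FARSA and VARS1, have 56 and 86. Across the 19 cytosolic synthetases the Spearman correlation of log2 change with neighbour count was 0.883, against 0.487 over the 16 mitochondrial ones and 0.432 over 10419 genes. The points are genes measured in the same 6 libraries, so these correlations are descriptions.

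The same description gave 0.103 over the cytosolic genes for the knockout without selenite, 0.647 for the knockout with selenite and -0.03 for selenite in control cells. With any 1 library left out, these ran from -0.05 to 0.23, from 0.578 to 0.675 and from -0.19 to 0.46. For selenite in knockout cells the correlation was 0.875 without the 2 shallow libraries and 0.846 to 0.903 with any 1 library left out. When the trend with neighbour count over all genes was removed from each library, it was 0.204, and 2 cytosolic falls (IARS1 and RARS1) and no rise were called. For the knockout with selenite, removing that trend left 6 cytosolic calls: FARSB and QARS1 higher and CARS1, FARSA, LARS1 and RARS1 lower. HARS1, with 85 neighbours, went to -0.01 (adjusted p = 0.96) and TARS1 to 0.03 (adjusted p = 0.81). FARSB, with 6 neighbours, went from 0.50 to 0.79, and NARS1, with 8, was no longer called (-0.19, adjusted p = 0.14). What links neighbour count with these changes was not tested.

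**Figure D4:**
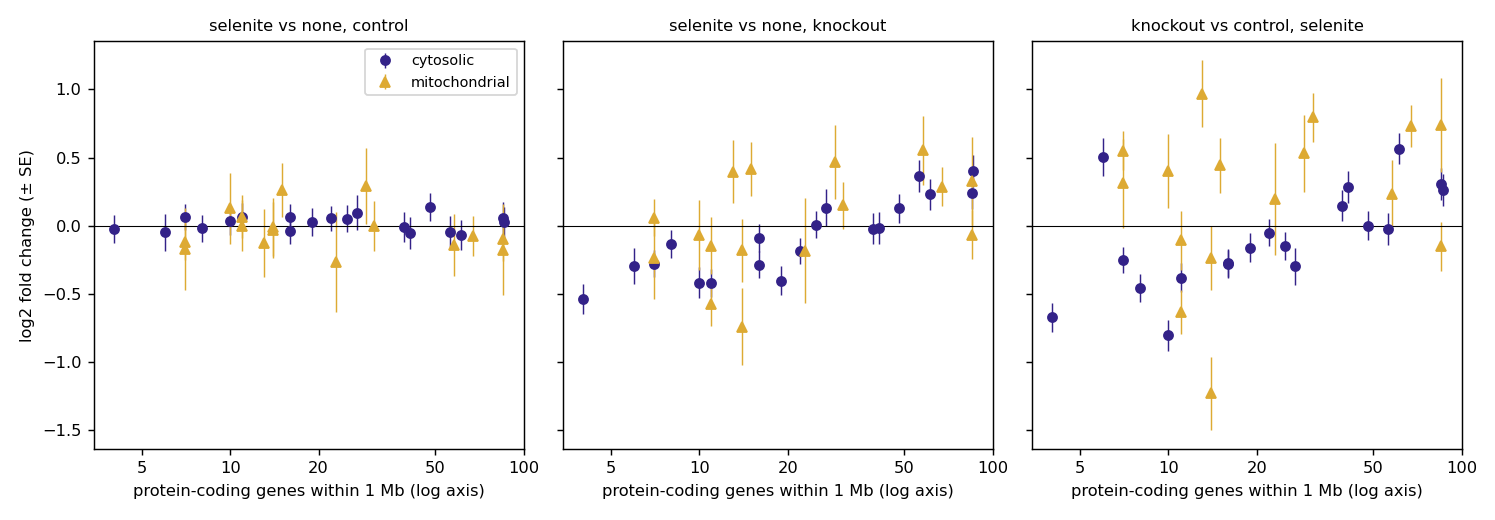
Log2 fold change of each synthetase (vertical axis) against the number of protein-coding genes starting within 1 Mb (log horizontal axis), for cytosolic and mitochondrial genes. For selenite in knockout cells the cytosolic genes rise from RARS1 (4 neighbours, -0.54) to VARS1 (86 neighbours, 0.40).

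Summed over the 19 cytosolic genes, synthetase footprints were 5767 ± 114 CPM in control and 5789 ± 165 CPM in knockout cells without selenite, and 5869 ± 135 and 5250 ± 161 CPM with selenite (SD, n = 3). The 3 knockout libraries with selenite, at 5105 to 5423 CPM, lay below all 9 others, the lowest of which had 5640 CPM. The mitochondrial sums overlapped between groups, at 873 ± 91.8, 956 ± 41.7, 875 ± 108 and 898 ± 15.7 CPM in the same order. Within it, IARS2 took 37.8 to 47.4% of the mitochondrial counts in control libraries without selenite, 40.3 to 46.2% in those with it and 35.5 to 40.3% in knockout libraries without selenite. These ranges overlap, while the knockout libraries with selenite lay below them at 26.01 to 29.4%.

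**Figure D5:**
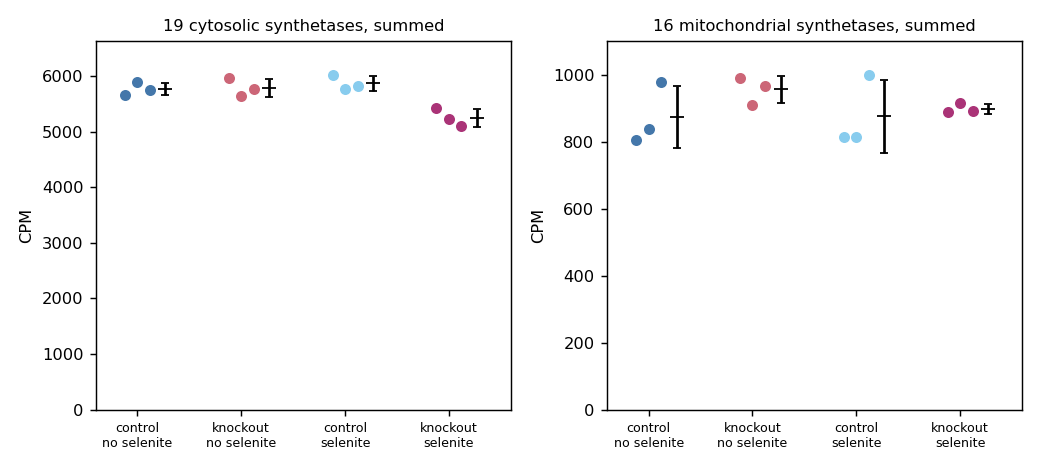
Summed footprint level in CPM of the 19 cytosolic (left) and 16 mitochondrial (right) synthetases in each library, by group, with the mean and SD of 3 libraries. The knockout with selenite is lowest on the left (5105 to 5423 CPM) and overlaps the other groups on the right (888 to 916 CPM).

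The synthetases of the phenylalanine, tryptophan, leucine and serine tRNAs moved in both directions. Among FARSA, FARSB, WARS1, LARS1 and SARS1, 1 rose and 2 fell without selenite, and 1 rose and 2 fell with it, where 23.9% and 42.9% of all genes were called. SARS1, which charges the serine and selenocysteine tRNAs, was not called: it stood at 174.5 to 185.9 CPM in control and 189.2 to 231.1 CPM in knockout libraries without selenite (0.25, adjusted p = 0.12), and its change with selenite was 0.28 (adjusted p = 0.051). By catalytic fold, the 19 class I enzymes had 2 rises and 1 fall without selenite and 4 and 6 with it, and the 16 class II enzymes 1 and 2, then 3 and 3. Without selenite both shares are below that of all genes, and with selenite class I is above it and class II below it.

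Of the 7 cytosolic genes with the TGATGNAA match, none rose and 1 fell in the knockout without selenite, and none rose and 3 fell with selenite (GARS1, NARS1 and TARS1). Over all genes 23.9% and 42.9% were called, so these counts are below and near the background. Their median log2 change was -0.03 and -0.25. The 9 cytosolic genes with a window but no match had 1 rise and 1 fall, then 3 rises and 3 falls, with medians of 0.12 and -0.02. YARS2, the mitochondrial gene with a match, rose in both. Other genes of the amino acid response moved in both directions. Of 24 listed, 22 were tested, and 7 rose and 2 fell in the knockout without selenite, while 10 rose and 3 fell with it. Over all genes 11.8% rose and 12% fell without selenite, and 21.3% and 21.6% with it. Those that rose include CEBPB, a transcription factor (1.07 ± 0.20 and 1.49 ± 0.21, adjusted p = 6.0e-05 and 3.3e-07), PYCR1, an enzyme of proline synthesis (0.53 and 0.93, adjusted p = 0.012 and 2.0e-05), and TRIB3, a pseudokinase (0.75 and 1.11, adjusted p = 0.012 and 0.00037). With selenite the mitochondrial serine hydroxymethyltransferase SHMT2 (0.75, adjusted p = 8.6e-07), the glutamine transporter SLC1A5 (0.55, adjusted p = 7.2e-05) and the serine synthesis enzyme PHGDH (0.54, adjusted p = 0.00017) rose as well. EIF2AK4, the sensor of uncharged tRNA, fell in both (-0.64 ± 0.13 and -0.76 ± 0.14, adjusted p = 0.00021 and 4.4e-05), as did DDIT4, an inhibitor of mTORC1 signalling (-0.72 and -0.50, adjusted p = 0.0002 and 0.0081). ATF4 itself, named here as the factor of the motif and chosen after its values were seen, had 0.39 without selenite (adjusted p = 0.12) and rose by 0.62 ± 0.20 with it (adjusted p = 0.01).

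Of 10 other factors of tRNA charging and editing, none was called in the knockout without selenite and 1 rose with it, both below the 23.9% and 42.9% of all genes called. That gene is GATB, a subunit of the enzyme that makes mitochondrial glutaminyl-tRNA by amidation. It stood at 30.23, 29.72 and 24.92 CPM in control and 49.37, 52.45 and 41.92 CPM in knockout libraries with selenite (0.78 ± 0.21, adjusted p = 0.0024). No mitochondrial glutaminyl-tRNA synthetase is on the list, since that tRNA is first charged with glutamate by EARS2, which was not called (0.44, adjusted p = 0.074).

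No call in any comparison was made for 16 of the 35 synthetases. Of these 6 were cytosolic (AARS1, CARS1, KARS1, MARS1, SARS1 and YARS1). The other 10 were mitochondrial (AARS2, CARS2, EARS2, FARS2, HARS2, NARS2, PARS2, SARS2, VARS2 and WARS2). Of the latter, PARS2, which charges the mitochondrial proline tRNA, had the lowest level, 5.307 to 11.71 CPM, near the limit of 3 counts, and its standard error of 0.344 without selenite was the largest of all 35. Footprints of MARS1, YARS1, CARS2, EARS2 and FARS2 may be shared with another gene of the table that overlaps them, and whether counting used strand is not given in the sources used here.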

How the data were processed

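Ribosome-protected fragments were sequenced in 12 libraries. The authors deposited a table of raw counts per gene and a table of normalized signal; the deposited signal was checked to equal the counts divided by 1 factor per library (largest deviation 6.2e-11) and was not used further. Per the submitters' processing notes, Trim Galore 0.6.10, STAR 2.7.9a and DESeq2 were used with GRCh38; the counting tool, annotation, strand setting and use of molecular identifiers are not given in the sources used here.

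The count analysis used edgeR 4.0.16 with limma 3.58.1 under R 4.3.3: genes kept by filterByExpr (minimum count 10, minimum total 15), TMM scaling, and quasi-likelihood models (glmQLFit with robust dispersion, glmQLFTest) over all 12 libraries with 1 coefficient per group. Benjamini-Hochberg adjustment ran over all 10467 genes tested, with a threshold of 0.05. The 5 comparisons were knockout against control without and with selenite, selenite against none in each genotype, and their interaction. CPM values are TMM-scaled except where they are shares of histone genes. Standard errors are approximate, from each gene's F statistic. The script was tested on simulated data. Totals of 520989 to 1543627 counts set the precision of each value.

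The alternatives were DESeq2 1.42.0 (Wald test, and its size factors in edgeR), no filter or a mean of at least 10 CPM, leaving out both shallow libraries or each library in turn, only the groups compared, the replicate number as a block, thinning to the smallest total, no robust dispersion, and a trend with gene density removed as an offset (lowess per library). Replicate numbers were not taken to pair samples: over 18 same-numbered pairs the correlation of deviations from group means was -0.03 to 0.28, and 7 exceeded 0.1, as did 2 of 36 other pairs. Every listed synthetase found in the table is named; genes of the other lists are named where past the threshold, up to 8 a list by smallest adjusted p. The members and lists were chosen with earlier results of these data known, so no test of a list is given. Levels per coding length were planned but not made, since no lengths were used here. Where levels of genes stand side by side, as for PARS2 and for the share of IARS2, they also carry the lengths of the genes. Sequences and positions are from RefSeq (GRCh38.p14).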

Additional observations from a re-analysis of the deposited data

Results flagged for a closer look

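EPRS1 and RARS1 were the synthetases whose response to selenite differed between knockout and control cells in the interaction test, by -0.48 and -0.51 on the log2 scale (edgeR quasi-likelihood test, Benjamini-Hochberg adjusted p = 0.036 and 0.031). EPRS1 changed by -0.42 with selenite in knockout and 0.06 in control cells, and RARS1 by -0.54 and -0.02. Each call was lost under 13 of 21 other settings. Over those settings the adjusted p ran from 0.001 to 0.54 for EPRS1 and from 0.0048 to 0.35 for RARS1, and neither changed direction.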

How the results depend on the processing

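Across the other settings, 3570 single values kept their side of the threshold, though values without a call could change sign, 149 lost a call and 63 gained one. The 2 summed levels of the knockout with selenite moved down by more than their SD when CPM was taken without TMM. Reversals of a call numbered 2, both with the gene density trend removed, for HARS1 (-0.0093) and TARS1 (0.031) in the knockout with selenite. In the following counts the main value stands first in brackets, and the cause of a move was not tested.

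Thinning to the smallest total, which removes counts, called 831 genes [2501] for the knockout without selenite, 1992 [4494] with it, 0 [2] for selenite in control cells, 530 [2149] for selenite in knockout cells and 108 [780] for the interaction. Cytosolic calls were 2 [4], 4 [10], 3 [8] in knockout cells and 0 [2] for the interaction, and mitochondrial calls 0 [2], 2 [6] and 0 [1]. Without both shallow libraries, which removes samples, 2777 genes were called for the knockout with selenite, 54 for selenite in knockout cells and 10 for the interaction. Cytosolic calls were then 7 without selenite, 5 with it, 0 for selenite in knockout cells and 0 for the interaction, and mitochondrial calls 0 for selenite in knockout cells. With the density trend removed, genes were 1235 for selenite in knockout cells and 351 for the interaction, with 6, 2 and 0 cytosolic calls for the knockout with selenite, selenite in knockout cells and the interaction, and 0 mitochondrial calls for selenite in knockout cells. The DESeq2 Wald test called 1626 genes for the knockout without selenite and 1382 for selenite in knockout cells, 6 cytosolic genes for the knockout with selenite, and 1 mitochondrial gene each for the knockout without selenite and the interaction. Without robust dispersion the interaction had 367 genes and 0 cytosolic calls. With only the groups compared, 7 cytosolic genes were called without selenite and 4 genes for selenite in control cells, where a mean of at least 10 CPM gave 1.

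The labels do not say whether replicate numbers pair the samples. Deviations of same-numbered libraries correlated at a median of 0.08 (7 of 18 pairs over 0.1), against -0.05 for other pairs (2 of 36). Same-numbered pairs thus had the higher median, which does not settle whether the numbers pair the samples. The main model took no pairing. With the replicate number as a block, cytosolic calls were 7 for the knockout without selenite and 5 for the interaction, with 1 mitochondrial call for the interaction, 1268 genes for the interaction and 5 for selenite in control cells; every other count stayed within 1.5 times.

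Leaving out 1 library at a time gave, for the knockout without selenite, 1882 to 2723 genes, 2 to 6 cytosolic calls (2 without control replicate 2 or knockout replicate 3) and 1 to 3 mitochondrial calls (1 without any compared library except knockout replicate 2). For the knockout with selenite it gave 3674 to 4491 genes, 6 to 11 cytosolic calls (6 without control replicate 1 or knockout replicate 2) and 6 to 8 mitochondrial calls. For selenite in control cells 1 to 3 genes and 0 synthetases were called. For selenite in knockout cells the range was 802 to 2758 genes, 1 to 8 cytosolic calls (1 and 5 without knockout replicate 1 or 3 of the cells without selenite, 4 and 3 without replicate 2 or 3 of those with it) and 0 to 2 mitochondrial calls. For the interaction it was 123 to 1707 genes, 0 to 5 cytosolic calls (0 unless the library left out was control replicate 2 with selenite, or knockout replicate 1 with or 2 without it) and 0 to 1 mitochondrial calls. Depth limits the mitochondrial genes most, with as few as 5 counts in a library.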

Other observations

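XPOT, the nuclear exporter of tRNAs, was lower in knockout than control cells with selenite (-0.43 ± 0.12 on the log2 scale, edgeR quasi-likelihood test, Benjamini-Hochberg adjusted p = 0.0026), fell with selenite in knockout cells (-0.61 ± 0.12, adjusted p = 0.00041) and was lower in the interaction (-0.66 ± 0.16, adjusted p = 0.013). It was named after its values were seen.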
